A study of Mus musculus with 9 samples.

Results

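Protein kinase A and its direct regulators were examined as 10 genes of 21922 measured in the mouse left ventricle: the inhibitors Pkig, Pkia and Pkib, the catalytic subunits Prkaca and Prkacb, the regulatory subunits Prkar1a, Prkar1b, Prkar2a and Prkar2b, and the anchoring protein Akap6. They were found by gene symbol, and each was measured by 1 probe set. Pkig was chosen by its measured log2 difference between arrays labelled Lrat-/- and wild-type arrays on the sufficient diet, and the rest are its functional partners. That contrast is therefore given for the 10 genes as a description, and nothing is read from which of them pass a threshold there.

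Protein kinase A rests as a complex in which a pair of regulatory subunits holds a pair of catalytic subunits inactive. When beta-adrenergic signalling raises cyclic AMP (cAMP), the regulatory subunits bind it and free the catalytic subunits, which in heart muscle phosphorylate calcium-handling and contractile proteins such as the ryanodine receptor, phospholamban and troponin I. Protein kinase inhibitor (PKI) peptides occupy the substrate site of free catalytic subunits, and anchoring proteins hold the complex at particular places in the cell.

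RNA from left ventricles of male mice was hybridised to 9 Affymetrix arrays, 1 per sample and 3 per group. The 3 groups were Lrat-/- on a vitamin A deficient diet, Lrat-/- on a vitamin A sufficient diet, and wild type on the sufficient diet. Both diets were given for 50 days, and the sufficient diet was the deficient diet with 250000 U/kg of retinol palmitate added. Lrat encodes lecithin retinol acyltransferase, which esterifies retinol for storage. All comparisons share arrays, there is no wild-type group on the deficient diet among the samples used here, and strain, age and the construction of the Lrat allele are not given in the sources used here. Nothing in the labels says whether replicate arrays came from separate mice, so errors and p-values describe the spread between these arrays.

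Values are log2 signals, on which a difference of 1 is 2-fold, and their precision is limited by 3 arrays per group. Array medians lay between 6.38 and 6.42, and the 5222 negative control probe sets had a 95th percentile of 7.53, which is used as the level under which a signal is called dim. The ventricular cardiomyocyte markers (8 of 8 measured, mean level 13.40 to 13.57 over the 9 arrays) were far above it. The 8 nerve and Schwann cell markers were all dim, as were the 4 lymphocyte markers. Wild-type arrays 1 and 2 stood apart on the first principal component, at 27.1 and 17.0, with wild-type array 3 at -3.80 and the other arrays between -15.0 and -0.48. On the second component the array farthest out was wild-type array 3, at 22.1. Sufficient Lrat-/- arrays 3 and 2 lay at -17.6 and -12.9 on it, and the remaining arrays between -3.27 and 6.36. The targeted gene went against its labels: Lrat had signals of 6.84, 6.78 and 6.96 on the deficient arrays labelled Lrat-/-, 7.29, 7.34 and 7.38 on the sufficient arrays labelled Lrat-/-, and 5.81, 5.78 and 5.73 on the wild-type arrays, all dim but higher where the label gives the knockout. Genotypes below are those of the labels.

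The inhibitor Pkig encodes the gamma form of PKI. Its difference from wild type was the largest of the 10 genes, which follows from its being picked by that difference. Its log2 signals were 10.25, 10.27 and 10.13 on the deficient Lrat-/- arrays, 10.41, 10.29 and 10.17 on the sufficient Lrat-/- arrays, and 8.48, 8.64 and 9.09 on the wild-type arrays. All 6 arrays labelled Lrat-/- were more than 1 log2 unit above the highest wild-type array, and the deficient and sufficient Lrat-/- arrays overlapped. Pkig averaged 10.22 ± 0.08 in deficient Lrat-/-, 10.29 ± 0.12 in sufficient Lrat-/- and 8.74 ± 0.31 in wild type (SD, n = 3 each). The spread was largest in wild type, where array 3 lay above the other 2.

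As a description, Pkig was 1.55 ± 0.14 (SE) log2 units higher in sufficient Lrat-/- than in wild type, or 2.93-fold, the rise ranked 5 by size among all genes. In deficient Lrat-/- against the same wild-type arrays it was 1.48 ± 0.14 higher, or 2.79-fold, the rise ranked 9. Because both comparisons use the wild-type arrays in which Pkig was picked, neither is a check of the other. Without wild-type array 3 the differences were 1.73 and 1.66. The authors' deposited table gives smaller ratios for Pkig, 2.48 for sufficient Lrat-/- over wild type and 2.35 for deficient Lrat-/- over wild type. Its false discovery rate for Pkig, for any difference among the 3 groups, is 0.076, over 0.05. Between the diets within Lrat-/-, Pkig did not differ beyond the spread: the deficient minus sufficient difference was -0.07 ± 0.14 (SE; 95% interval -0.39 to 0.25; limma adjusted p = 0.978).

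**Figure D1:**
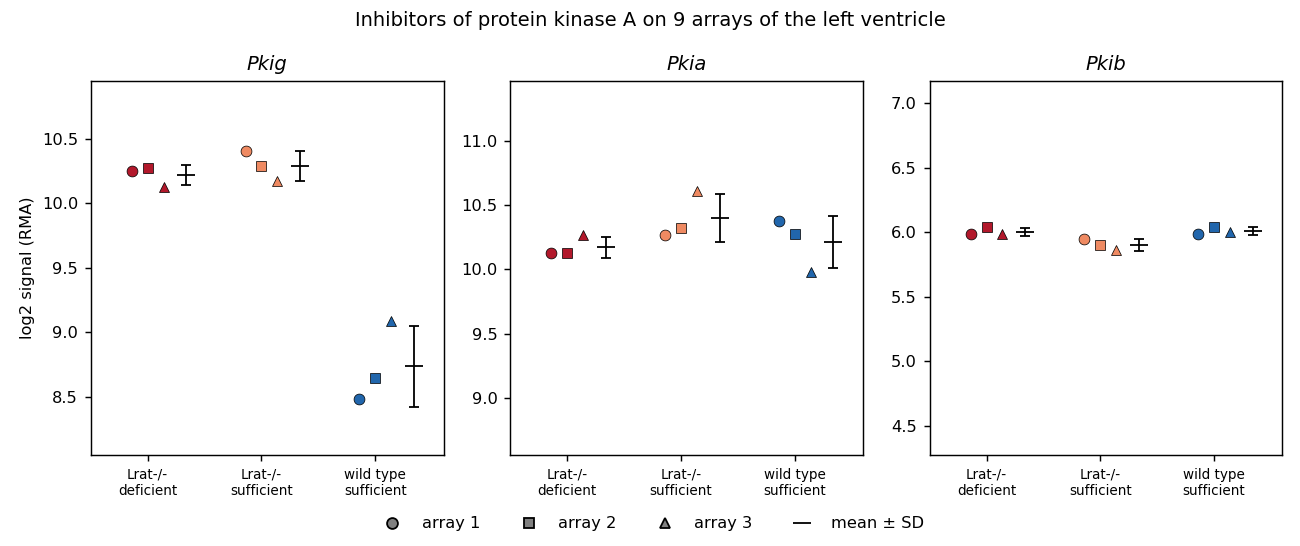
Log2 signals of the 3 PKI genes, with 1 point per array and the mean ± SD beside each group, on axes of equal span. Pkig sits between 10.13 and 10.41 on the 6 arrays labelled Lrat-/- and between 8.48 and 9.09 on the wild-type arrays, while Pkia and Pkib stay within 0.63 and 0.18 log2 units over all 9 arrays.

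Pkig lies on chromosome 2, and RefSeq lists 3 transcript starts for it on build GRCm38.p6, of which the first and the second lie so near that their windows overlap. The 250 bases before the first start (chr2:163658136-163658385, plus strand) and before the last start (chr2:163693787-163694036, plus strand) are shown because Pkig is the gene that was picked. Capitals mark CCGCCC, the reverse complement of a GC box (GGGCGG), in the first and TGACG, the short form of the cAMP response element, in the second.
Pkig, first start: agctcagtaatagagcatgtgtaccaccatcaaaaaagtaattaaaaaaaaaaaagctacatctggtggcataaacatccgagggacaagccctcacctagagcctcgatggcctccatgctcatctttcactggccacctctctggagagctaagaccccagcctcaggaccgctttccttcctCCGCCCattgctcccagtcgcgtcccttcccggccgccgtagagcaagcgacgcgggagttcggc
Pkig, last start: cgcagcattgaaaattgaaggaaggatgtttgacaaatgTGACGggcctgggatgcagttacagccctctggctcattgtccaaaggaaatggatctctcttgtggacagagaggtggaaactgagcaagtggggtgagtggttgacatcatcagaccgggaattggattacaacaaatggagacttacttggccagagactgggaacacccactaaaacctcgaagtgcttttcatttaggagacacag

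For the 10 genes, 25 windows of 300 bases (250 before to 50 after a start) were searched on both strands, covering 9 genes. The retinoic acid receptor core motif AGGTCA was in no Pkig window. It was found in 1 window each of Akap6, Prkar1a and Prkar1b, against 16.3% of the 32851 windows of all genes. Direct repeats of AGGTCA with 5 or with 2 bases between were in none of the 25 windows and in 0.00913% of all windows each. TGACG was in 8 windows of 6 of these genes, against 20.8% of all windows, and GGGCGG in 13 windows of 7 genes, against 35.7%. Some windows of a gene overlap, so the same site can be counted more than once. This was so for a GC box of Pkig and for TGACG and a GC box of Prkar1a. The full cAMP response element TGACGTCA, which contains TGACG, was in 2 overlapping windows of Prkar1a and in 1.79% of all windows. It lay 49 bases before the later of those starts, in the following 30 bases at chr11:109650889-109650918, plus strand, with the element in capitals.
Prkar1a: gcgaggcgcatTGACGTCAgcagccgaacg

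The genes beside Pkig on chromosome 2 had smaller differences. Of 5 measured genes on each side, none passed the threshold of 0.05 on the adjusted p in any comparison. Serinc3, the nearest measured gene on one side, had signals of 12.91, 12.93 and 12.86 in deficient Lrat-/-, 13.04, 13.06 and 12.96 in sufficient Lrat-/-, and 12.75, 12.73 and 12.45 in wild type. Its groups labelled Lrat-/- did not overlap wild type, with differences of 0.26 ± 0.09 for deficient and 0.38 ± 0.09 for sufficient Lrat-/- (SE). Ada, the adenosine deaminase gene on the other side, was dim and ran the opposite way, at 6.86, 6.83 and 6.86 in deficient Lrat-/-, 6.86, 6.47 and 6.60 in sufficient Lrat-/-, and 6.99, 7.15 and 7.13 in wild type. Ttpal, the neighbour after Serinc3, also had sufficient Lrat-/- above wild type without overlap, by 0.34 ± 0.12 (SE).

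**Figure D2:**
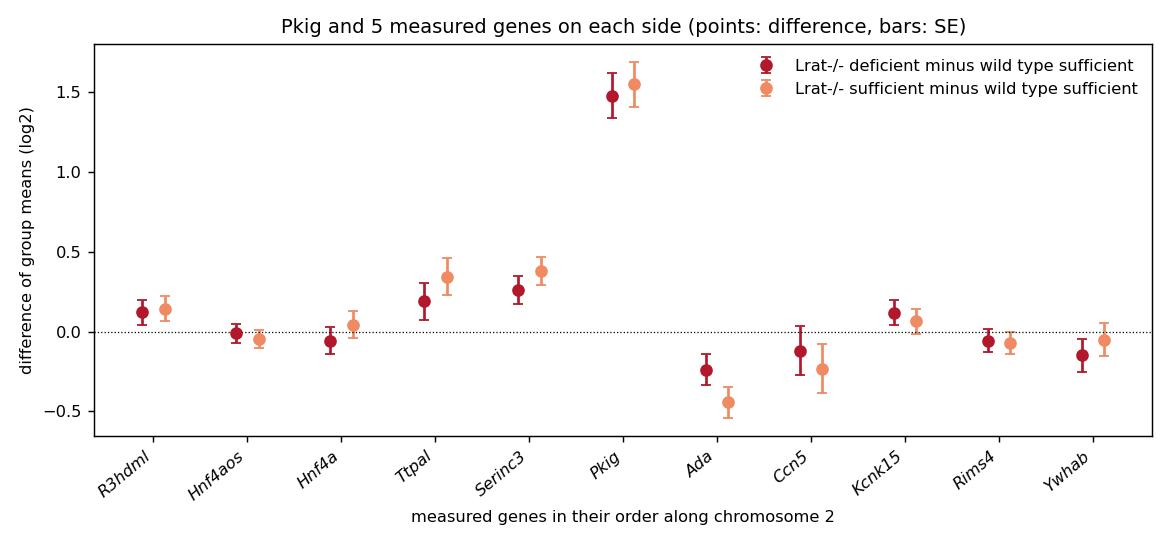
Difference of group means (log2) from wild type, with SE bars, for Pkig and the 5 measured genes on each side in their order along chromosome 2. Pkig is at 1.48 for deficient and 1.55 for sufficient Lrat-/-, and the neighbours lie between -0.44 for Ada and 0.38 for Serinc3.

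Over the 9 arrays, the genes whose pattern was most like that of Pkig were sought by Pearson's r. The search covered 817 genes with a range of at least 1 log2 unit, passing over predicted genes and clones. The highest were Zfp943 (r = 0.980), Vcpkmt (0.970), Rerg (0.967), Lgr6 (0.964) and Ifi44l (0.952), and the most opposite were Elovl7 (-0.983), Hal (-0.981), Plekha7 (-0.969), Gdpd3 (-0.965) and Zfp945 (-0.961). The 9 points fall into the same groups for every gene, so these coefficients describe a shared contrast between wild-type arrays and the rest. None of these 10 genes lies on chromosome 2.

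The other PKI genes did not follow Pkig. Pkia, the alpha form that is abundant in muscle and brain, had signals of 10.13, 10.13 and 10.27 in deficient Lrat-/-, 10.27, 10.32 and 10.61 in sufficient Lrat-/-, and 10.38, 10.28 and 9.98 in wild type. The 3 groups overlapped, and the deficient minus sufficient difference was -0.23 ± 0.12 (SE, adjusted p = 0.968 by limma). Within each of the 3 groups the array with the highest Pkia signal was the array with the lowest Pkig signal. The same held for Akap6 in 3 of 3 groups and for Prkar2a in 2 of 3. It held for Prkaca, Prkacb, Prkar1a and Prkar2b in 1 of 3 each and for Pkib in 0 of 3. Prkar1b had tied arrays, and how many of all genes share this order was not counted. Pkib, the beta form, was dim on every array, at 5.99, 6.04 and 5.99 in deficient Lrat-/-, 5.95, 5.90 and 5.86 in sufficient Lrat-/-, and 5.99, 6.04 and 6.01 in wild type. The sufficient Lrat-/- arrays lay below the other 2 groups, with a deficient minus sufficient difference of 0.10 ± 0.06 (SE, adjusted p = 0.968 by limma). For Pkib the authors' deposited table gives a larger deficient over sufficient ratio, 1.22.

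Both catalytic subunits had their lowest mean in deficient Lrat-/-. Prkaca, which encodes the main catalytic subunit of the heart, had signals of 9.62, 9.24 and 9.52 in deficient Lrat-/-, 9.75, 9.87 and 9.62 in sufficient Lrat-/-, and 9.82, 9.59 and 9.54 in wild type. Prkacb, which encodes the beta catalytic subunit, had 9.22, 8.95 and 9.09 in deficient Lrat-/-, 9.27, 9.22 and 9.41 in sufficient Lrat-/-, and 9.30, 9.35 and 9.08 in wild type. In both genes the highest deficient array, array 1, reached the lowest sufficient array. Paired by replicate number, deficient minus sufficient was -0.12, -0.63 and -0.10 for Prkaca and -0.04, -0.27 and -0.32 for Prkacb, lower in 3 of 3 pairs for both. The deficient minus sufficient difference was -0.28 ± 0.12 for Prkaca and -0.21 ± 0.10 for Prkacb (SE, adjusted p = 0.968 each by limma). Against wild type, deficient Lrat-/- differed by -0.19 ± 0.12 for Prkaca and -0.15 ± 0.10 for Prkacb (SE), with adjusted p of 0.680 and 0.689 by limma. Without deficient array 2 these were -0.08 for both genes against wild type, and -0.17 for Prkaca and -0.14 for Prkacb between the diets.

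Among the regulatory subunits, Prkar1a and Prkar2a were lower in deficient Lrat-/- and Prkar2b was higher, and none passed the threshold. Prkar1a encodes the RI-alpha subunit, whose loss of function in humans causes Carney complex. Its signals were 11.07, 10.90 and 10.85 in deficient Lrat-/-, 11.41, 10.78 and 11.11 in sufficient Lrat-/-, and 11.62, 11.41 and 11.18 in wild type. Every deficient Lrat-/- array lay below every wild-type array, and the sufficient Lrat-/- arrays overlapped both. The deficient minus wild type difference was -0.46 ± 0.16 (SE), a level 0.725 times that of wild type (adjusted p = 0.455 by limma), and deficient minus sufficient was -0.16 ± 0.16 (adjusted p = 0.969). The difference between the diets was -0.0063 without sufficient Lrat-/- array 1 and -0.32 without sufficient Lrat-/- array 2.

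Prkar2a encodes the RII-alpha subunit, of the type that most anchoring proteins bind. It had signals of 8.51, 8.12 and 8.19 in deficient Lrat-/-, 8.78, 8.69 and 8.85 in sufficient Lrat-/-, and 8.92, 8.59 and 8.34 in wild type. The deficient arrays lay below all sufficient Lrat-/- arrays but overlapped wild type, in which the 3 arrays were widely spread. The deficient minus sufficient difference of -0.50 ± 0.15 (SE; 95% interval -0.84 to -0.17) was the largest of the 10 genes between the diets and corresponds to 0.706 times the sufficient level. Its adjusted p by limma was 0.968, and against wild type the difference was -0.34 ± 0.15 (SE, adjusted p = 0.553), or -0.19 without wild-type array 1.

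Prkar2b, which encodes the RII-beta subunit known from fat and brain, was dim except on deficient array 3. It had signals of 7.32, 7.37 and 7.56 in deficient Lrat-/-, 7.29, 7.12 and 6.99 in sufficient Lrat-/-, and 7.29, 7.29 and 7.31 in wild type. Every deficient array was above every array of the other 2 groups. The difference was 0.29 ± 0.09 from sufficient Lrat-/- (SE, adjusted p = 0.968 by limma) and 0.12 ± 0.09 from wild type (adjusted p = 0.725). Prkar1b, which encodes the RI-beta subunit of the nervous system, was dim and had the same value, 6.74, on 6 of the 9 arrays, which 2.24% of genes match or exceed. Its 3 group means lay between 6.69 and 6.74, and nothing about its order can be read at that level.

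Akap6 encodes the muscle anchoring protein that holds protein kinase A at the nuclear envelope of heart muscle cells. Its signals were 8.05, 7.98 and 8.05 in deficient Lrat-/-, 8.26, 8.15 and 8.54 in sufficient Lrat-/-, and 8.46, 8.14 and 8.01 in wild type. The deficient arrays lay below all sufficient Lrat-/- arrays and overlapped wild type. The deficient minus sufficient difference was -0.29 ± 0.13 (SE), or 0.817 times the sufficient level (adjusted p = 0.968 by limma), and -0.18 without sufficient Lrat-/- array 3.

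**Figure D3:**
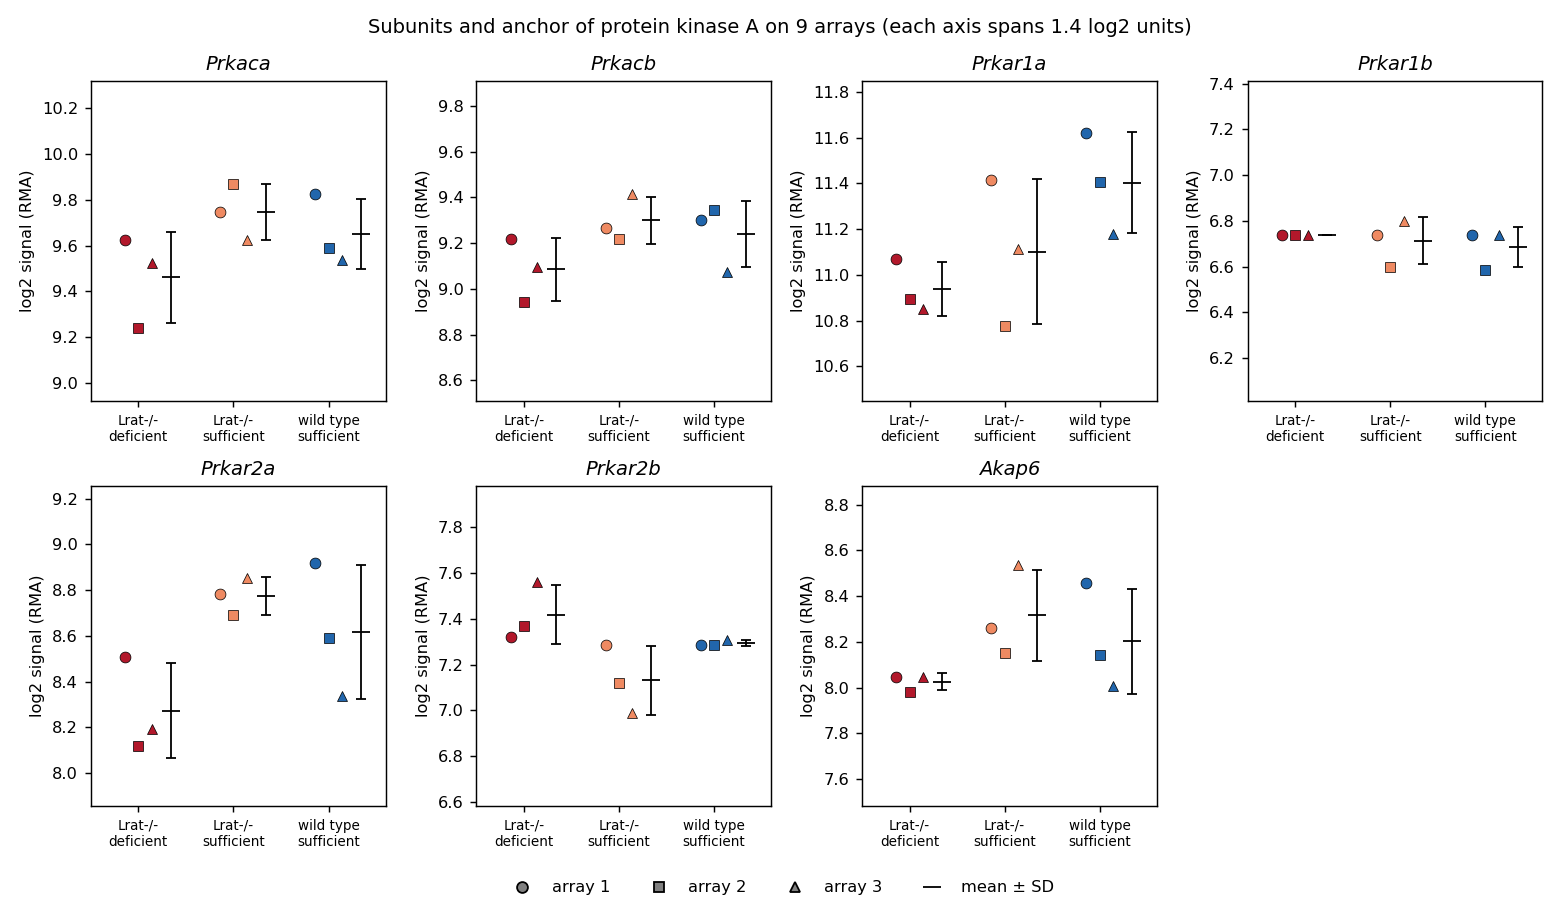
Log2 signals of the catalytic subunits, regulatory subunits and Akap6, with 1 point per array and the mean ± SD beside each group. Deficient Lrat-/- arrays lie below all sufficient Lrat-/- arrays for Prkar2a and Akap6 and above them for Prkar2b, and wild-type arrays are spread between 8.34 and 8.92 for Prkar2a.

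Taking the 10 genes by comparison, the diet contrast within Lrat-/- had 3 genes higher and 7 lower in deficient hearts, where 51.5% of all genes were lower. Limma called 0 of the 10 between the diets, against 0.00% of all 21922 genes. At an unadjusted p under 0.05 there were 4 of the 10 (Prkar2a, Prkar2b, Prkaca and Akap6), against 4.28% of all genes. The diet groups did not overlap for 4 genes, Prkar2b and Pkib higher and Prkar2a and Akap6 lower in deficient Lrat-/-, against 9.47% of all genes. Prkar2b and Pkib had dim means in every group, which limits what their order can show. The authors' deposited table likewise has 4 of the 10 under 0.05 for deficient over sufficient Lrat-/-, namely Pkib, Prkar2a, Prkar2b and Akap6, against 4.89% of its probe sets. Their false discovery rates there, for any difference among the 3 groups, are 0.611, 0.789, 0.737 and 0.798. The median difference of the 9 genes other than Pkig was -0.21, and the median of all genes was -0.0040. Paired by replicate number, Pkig, Pkia, Prkaca, Prkacb, Prkar2a and Akap6 were lower and Pkib and Prkar2b higher in deficient Lrat-/- in 3 of 3 pairs, where 28.5% of all genes had 3 pairs the same way. All 10 genes were read from the same arrays.

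In deficient Lrat-/- against wild type, 1 of the 10 lay past the threshold, against 0.132% of all genes. It was Pkig, whose choice rests on the same wild-type arrays, so the count is not a test of it. Of the other 9, for which adjusted p ranged from 0.455 to 0.984, 2 were higher and 7 lower, where 51.2% of all genes were lower, with a median of -0.15. Groups did not overlap for Pkig and Prkar2b (dim means), both higher, and Prkar1a, lower, against 11.5% of all genes. In sufficient Lrat-/- against wild type, the contrast in which Pkig was picked, 1 of the 10, Pkig itself, lay past the threshold, against 0.132% of all genes. That count follows from the choice, and nothing is read from it. There the other 9 had differences between -0.30 for Prkar1a and 0.19 for Pkia, with a median of 0.06, and 3 were lower, as were 50.8% of all genes. Groups did not overlap for Pkig and for the dim Pkib, against 7.90% of all genes. When only the 2 groups compared entered the fit, 0 of the 10 genes lay past the threshold in either comparison with wild type, Pkig included.

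**Figure D4:**
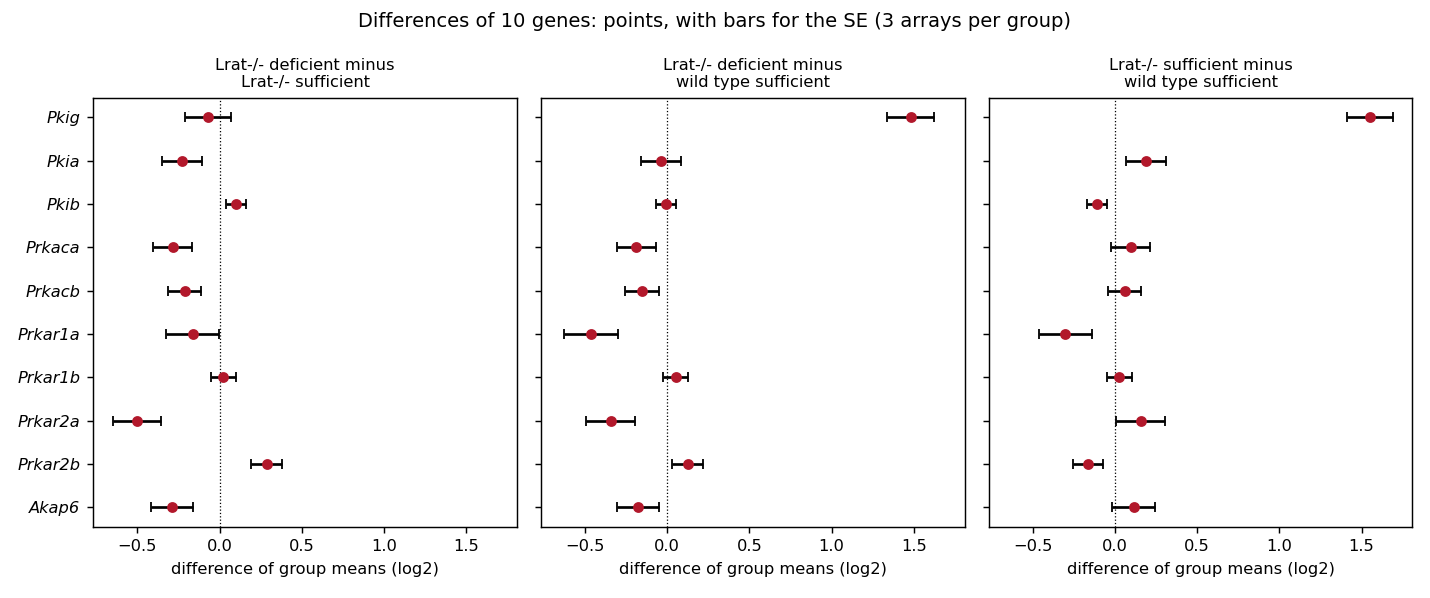
Difference of group means (log2) with SE bars for the 10 genes in the 3 comparisons. Pkig, picked by its difference from wild type, alone lies beyond 1, at 1.48 and 1.55 there and -0.07 between the diets. Prkar2a at -0.50 is the farthest from 0 between the diets.

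Within the groups, arrays differed in the level of several of these genes at once. Wild-type array 1 alone was the highest of its group for 5 of the 9 genes other than Pkig, and for Prkar1b it tied with array 3. Wild-type array 3 alone was the lowest for 6 of the 9. The same array 3 had the highest Pkig signal of its group. The wild-type range of Prkar1a, Prkar2a and Akap6 rests on this order. Over all genes, wild-type arrays 1 and 3 also lay apart, at 27.1 and -3.80 on the first principal component. The share of all genes with such an order was not counted.

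Several cell type markers differed between the groups beside Pkig and its partners. Red blood cell markers (3 of 5 measured, 2 of them dim) had a mean level of 8.74 to 10.04 in deficient Lrat-/-, 8.52 to 8.94 in sufficient Lrat-/- and 7.13 to 8.13 in wild type. Fibroblast markers (7 of 7) lay between 9.27 and 9.44 in deficient Lrat-/-, 9.32 and 9.50 in sufficient Lrat-/-, and 9.50 and 9.65 in wild type. Ventricular cardiomyocyte markers were between 13.40 and 13.48 in deficient Lrat-/-, 13.48 and 13.51 in sufficient Lrat-/-, and 13.54 and 13.57 in wild type. In these 3 lists the mean level of all arrays labelled Lrat-/- lay on one side of wild type, narrowly so for fibroblast markers. The same held for the dim lymphocyte markers (4 of 4), at 6.06 to 6.22 in deficient Lrat-/-, 6.10 to 6.30 in sufficient Lrat-/- and 6.33 to 6.46 in wild type. Single markers were mixed. In sufficient Lrat-/-, 3 of 8 ventricular cardiomyocyte, 1 of 7 fibroblast and 1 of 4 lymphocyte markers were higher than in wild type. In deficient Lrat-/- these counts were 0, 1 and 0. Endothelial markers (6 of 6 measured) were all lower in both Lrat-/- groups than in wild type, with overlapping mean levels of 8.82 to 9.07 in deficient Lrat-/-, 8.92 to 9.25 in sufficient Lrat-/- and 8.97 to 9.54 in wild type. Between the diets, atrial cardiomyocyte markers (5 of 5 measured, 2 dim) were all higher in deficient Lrat-/-, at 7.67 to 7.77, against 7.26 to 7.65 in sufficient Lrat-/- (7.31 to 7.94 in wild type), with a median difference of 0.34. Smooth muscle markers (4 of 4, 3 of them dim) lay between 7.69 and 7.95 in deficient Lrat-/-, 8.04 and 8.33 in sufficient Lrat-/-, and 7.62 and 7.91 in wild type. No marker passed the threshold in any comparison, no defining marker is at 0 on this scale, and their part in the results was not tested. In a whole ventricle, fewer cells of a type and less RNA per cell cannot be told apart.

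The rest of the cAMP pathway was followed in 7 lists that hold 109 measured genes. In the diet contrast 38 were higher and 71 lower in deficient Lrat-/-, with a median of -0.04, and in deficient Lrat-/- against wild type 37 were higher and 72 lower, with a median of -0.07. In sufficient Lrat-/- against wild type 42 were higher and 67 lower. Of the 109, 0 passed the threshold by limma in each comparison. At an unadjusted p under 0.05 there were 6 between the diets, where 939 of all 21922 genes were, 14 in deficient Lrat-/- against wild type, where 1972 were, and 7 in sufficient Lrat-/- against wild type, where 1490 were. Groups did not overlap for 4 genes higher and 10 lower between the diets, against 9.47% of all genes in either direction. For deficient Lrat-/- against wild type these were 4 higher and 12 lower, against 11.5%. For sufficient Lrat-/- against wild type they were 6 higher and 6 lower, against 7.90%. The genes named below were picked by low p within their lists, so their separation is a description.

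Upstream of the kinase, the 19 genes of cAMP production (receptors, G proteins and adenylyl cyclases) had 8 higher and 11 lower between the diets. Chrm2, the muscarinic receptor through which the vagus lowers cAMP in the heart, had signals of 10.03, 9.74 and 10.04 in deficient Lrat-/-, 10.39, 10.49 and 10.81 in sufficient Lrat-/-, and 10.77, 10.32 and 9.72 in wild type. Its deficient arrays lay below the sufficient Lrat-/- arrays, with a difference of -0.63 ± 0.23 (SE, adjusted p = 0.968 by limma), and overlapped the widely spread wild-type arrays. Adcy5, a main adenylyl cyclase of the heart, had a deficient minus sufficient difference of -0.31 ± 0.14 with an adjusted p of 0.968, and -0.18 without deficient array 2. The 16 phosphodiesterases, which break down cAMP, had 2 higher and 14 lower between the diets with a median of -0.06. Pde3a, a cardiac form, differed from wild type by -0.24 ± 0.09 in deficient and -0.17 ± 0.09 in sufficient Lrat-/- (SE, adjusted p = 0.482 and 0.751 by limma).

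Of the 20 other anchoring proteins, 9 were higher and 11 lower between the diets. Cmya5, a large muscle protein also called myospryn, differed by -0.37 ± 0.16 between the diets and by -0.44 ± 0.16 in deficient Lrat-/- against wild type (SE, adjusted p = 0.968 and 0.480 by limma), and by -0.23 and -0.29 without deficient array 2. Akap7, which anchors the kinase near phospholamban, went the other way, at 10.47, 10.40 and 10.62 in deficient Lrat-/-, 10.35, 10.33 and 10.35 in sufficient Lrat-/-, and 10.11, 10.31 and 10.30 in wild type. Its 3 groups did not overlap, and the deficient minus wild type difference was 0.25 ± 0.08 (SE, adjusted p = 0.422 by limma).

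Of 10 genes for other cAMP sensors, a related kinase and a ubiquitin ligase, 2 were higher and 8 lower between the diets. Rapgef4, a cAMP-activated exchange factor also called Epac2, was lower on all 6 arrays labelled Lrat-/- than on any wild-type array, with a difference of -0.36 ± 0.10 in deficient Lrat-/- (SE, adjusted p = 0.337 by limma). Hcn2, a pacemaker channel that cAMP opens, was 0.33 ± 0.09 higher in deficient Lrat-/- than in wild type, without overlap (adjusted p = 0.336). In sufficient Lrat-/- it was 0.17 ± 0.09 higher than in wild type (SE, adjusted p = 0.751 by limma). Bves, a cAMP-binding membrane protein of muscle, had signals of 10.66, 10.82 and 10.61 in deficient Lrat-/-, 10.90, 10.99 and 10.92 in sufficient Lrat-/-, and 10.71, 10.55 and 10.69 in wild type, so that the sufficient Lrat-/- arrays stood above the others.

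Downstream, the 18 heart muscle substrates of the kinase had 8 higher and 10 lower between the diets. Kcne1, a potassium channel subunit, had signals of 7.16, 7.10 and 6.97 in deficient Lrat-/-, 7.52, 7.19 and 7.80 in sufficient Lrat-/-, and 7.52, 7.63 and 7.65 in wild type. The deficient arrays lay below all others, with differences of -0.42 ± 0.14 from sufficient Lrat-/- and -0.52 ± 0.14 from wild type (SE, adjusted p = 0.968 and 0.288 by limma). Its means in both Lrat-/- groups were dim, and without sufficient Lrat-/- array 3 the difference between the diets was -0.28. Of 11 genes for the CREB family of cAMP-driven transcription factors, their coactivators and salt-inducible kinases, 4 were higher and 7 lower between the diets. Creb1 itself was 0.19 ± 0.08 above wild type in both deficient and sufficient Lrat-/- (SE, adjusted p = 0.528 and 0.703 by limma). The 20 CREB target genes had 6 higher and 14 lower between the diets. Nr4a1, an immediate early gene, differed from wild type by -0.91 ± 0.42 in deficient and -0.87 ± 0.42 in sufficient Lrat-/- (SE, adjusted p = 0.572 and 0.742 by limma). Without wild-type array 1 these were -0.39 and -0.35.

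**Figure D5:**
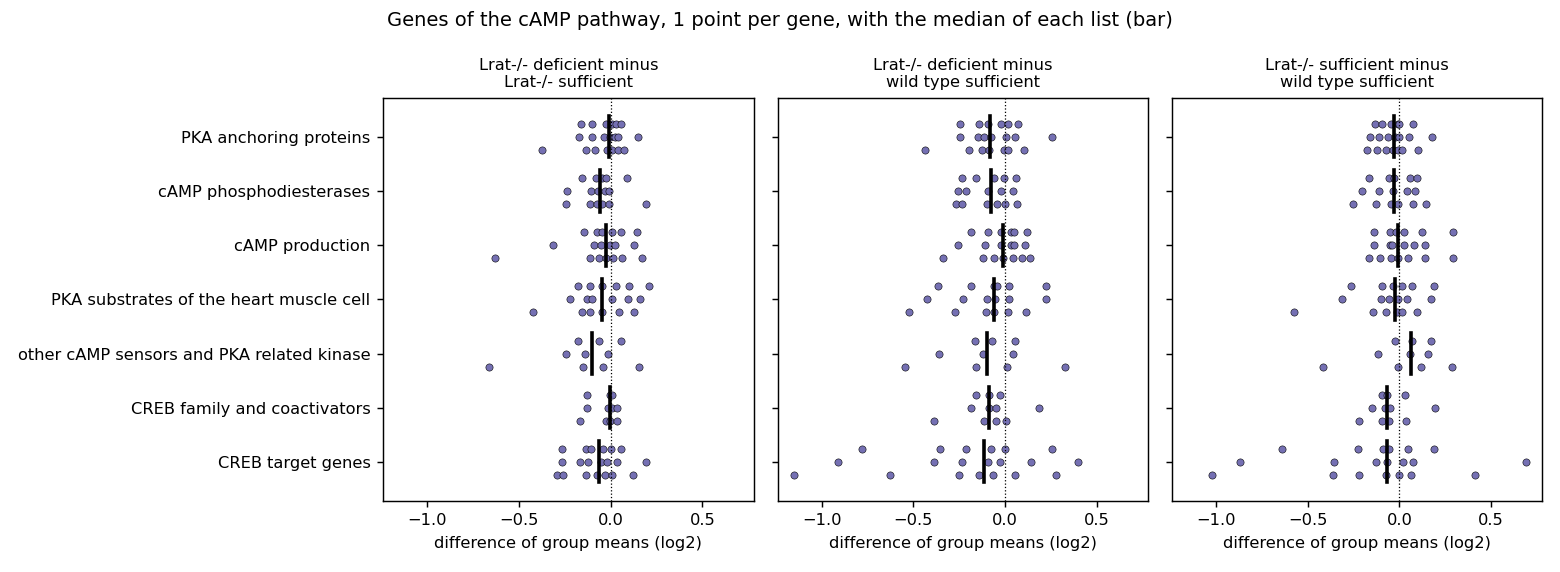
Difference of group means (log2) for each gene of the 7 cAMP pathway lists in the 3 comparisons, with a bar at the median of each list. The medians lie between -0.12 and 0.06, and none of the 109 genes passed the threshold.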

How the data were processed

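Gene expression was measured in 9 left ventricle samples. The authors deposited log2 signals per sample, made with RMA (background correction, quantile normalization and summary per probe set) per the submitters' processing notes, which also name R 3.1.2 and build mm8 without roles. The log2 scale was read from the values. The authors' deposited comparison table holds, per the file headers, ratios and p-values of the group pairs, by a method not given in the sources used here. It also holds 1 false discovery rate per probe set, read here as that of any difference among the 3 groups. 9 value columns that match no sample were not used.

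Of 35556 probe sets, 24032 named a single gene (20365 by accession, 2178 by symbol, 538 by synonym and 951 with the name as written), giving 21922 genes, each by its probe set of highest mean. Left out were 6546 controls, 2500 with no gene named, 134 naming several genes and 2344 that the 2 tables name differently. RefSeq GRCm38.p6 tables gave names, chromosomes, gene order and promoter sequence.

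The limma package (3.58.1, under R 4.3.3) fitted the 3 group means to all 9 arrays at once with lmFit and eBayes. Two-sided p-values were adjusted by Benjamini-Hochberg across the 21922 genes, and calls required an adjusted p under 0.05. The script was tested on simulated data. Python 3.11.15 was used for tables (pandas 2.3.3, numpy 2.4.6) and plots (matplotlib 3.10.9). The 10 genes and all lists were chosen with earlier results of these data known. The text names the 10 genes, of each pathway list genes past the threshold or among the 3 of lowest p in a comparison, Lrat, the genes most like or opposite to Pkig and Prkar1a, and the 5 measured neighbours on each side of Pkig.

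Arrays of the same replicate number in the deficient and sufficient Lrat-/- groups deviated together from their group means (r = 0.22, 0.27 and 0.21 over all genes). Those with wild type did not. The labels do not say what the number marks, so pairs by number are given as a description. The main fit does not use them. Alternatives were the replicate block, only the 2 groups compared, each array left out, renewed quantile normalization, filters at a mean log2 of 6 and of 7, the mean of all probe sets of a gene, every probe set on its own, eBayes with trend and robust settings, and the authors' ratios.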

Additional observations from a re-analysis of the deposited data

How the results depend on the processing

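Among the 10 genes, Pkig alone lay past the threshold against wild type, and since it was picked on those arrays, no stability is read from how often it did. In the fit of only the 2 groups compared, 0 of the 10 did in both comparisons with wild type, and 7 genes passed in each of them. In sufficient Lrat-/- against wild type, 29 genes passed, and 11 to 96 did with 1 array left out. In deficient Lrat-/- against wild type, 29 passed, 19 with a mean log2 of at least 7, and 11 to 266 with 1 array left out. The counts of 96 and 266 came without wild-type array 3. The cause was not tested. Between the diets 0 of all genes passed under all 17 alternatives, and 0 of the 109 pathway genes passed in any comparison and alternative.

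With the replicate number as a block, 0 genes passed between the diets, where same-numbered arrays deviated together, and the block changed no call of the 10 genes. In the comparisons with wild type, where arrays share only a number (r of -0.09, 0.01 and -0.14 for sufficient Lrat-/-, and 0.13, -0.05 and 0.01 for deficient Lrat-/-), it gave 21 and 25 genes. 

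As log2 values, the authors' ratios were 1.31 for sufficient and 1.23 for deficient Lrat-/- over wild type for Pkig, and -0.23, 0.06 and 0.29 for Pkib in sufficient Lrat-/- over wild type, deficient over wild type and deficient over sufficient. With 1 array left out, 22 of the 27 differences of the 9 genes other than Pkig moved by over 1.5 times or changed sign, as did 36 of the 63 of the named pathway genes. Pkig, picked on these arrays, differed from wild type by 1.42 to 1.73 in sufficient and 1.35 to 1.66 in deficient Lrat-/-, given as a description. Prkar2a differed between the diets by -0.62 to -0.43, Prkar2b by 0.21 to 0.36 and Akap6 by -0.37 to -0.18. Signals under the control percentile of 7.53 limit what can be said of Pkib, Prkar1b, Prkar2b and Kcne1.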

Other observations

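Prkar1a had the largest spread within groups of the 10 genes (residual SD 0.233). It was compared over the 9 arrays with 818 genes with a range of at least 1 log2 unit, passing over predicted genes and clones. The genes most like Prkar1a by Pearson's r were the glycerol channel Aqp7 (r = 0.945), the lysyl oxidase Loxl2 (0.924) and Apol10b (0.900). The most opposite were Rnf7 (-0.929), the mitochondrial ribosomal protein gene Mrpl22 (-0.904) and the mitochondrial tRNA gene mt-Ty (-0.898). Aqp7 averaged 9.22 ± 0.21 in deficient Lrat-/-, 9.52 ± 0.41 in sufficient Lrat-/- and 10.05 ± 0.32 in wild type (SD, n = 3 each). The points share arrays and groups, so the coefficients are descriptions.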
